A study of Caenorhabditis elegans with 54 samples.

Results

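The genes described here are the nuclear hormone receptor genes of Caenorhabditis elegans that carry an nhr number as their symbol (nhr-1, nhr-2 and so on). They were taken from the deposited table by that rule, after its WormBase gene identifiers had been matched to the gene symbols of the Ensembl release 115 annotation. The rule found 269 of the 19909 genes in the table, and all 269 are annotated as protein coding. Nuclear receptors that go by another name, such as daf-12, were not chosen by it. No measured value entered the choice.

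Nuclear hormone receptors are transcription factors with a zinc-finger domain that binds DNA and a second domain that in many members binds a small lipophilic molecule such as a steroid, a bile acid-like sterol or a fatty acid. C. elegans carries far more of them than mammals or flies do, and most arose by repeated duplication of an ancestor related to the mammalian receptor HNF4. A small set has clear counterparts in other animals and includes the receptors that drive molting, while several of the HNF4-related members set fat desaturation, fat burning and the response to dietary metabolites.

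All 54 libraries came from whole worms of the same strain, the dauer-constitutive insulin receptor mutant daf-2(e1370), so the control larvae carried the mutation too. Dauer larvae, the arrested and stress-resistant alternative larval stage, were formed and kept at a raised temperature and collected on day 1, 4, 15 or 30 of the arrest (D1, D4, D15 and D30). Each day was sampled at 0 h and at 6 and 24 h after exit had been induced by a move to a lower temperature and fresh bacteria. L3 larvae were the non-dauer reference. Per the study's methods, strains were kept at the lower temperature outside dauer formation and arrest. Stage and temperature can thus not be told apart in comparisons with L3. 5 further conditions had been irradiated with ultraviolet light (UV) on dauer day 1, and were sampled 6 and 24 h into exit from D1 and at all 3 hours of D4. With 3 biological replicates in each, there were 18 conditions, of which 13 had no UV. In RNA from whole animals, fewer cells of a type and less RNA per cell cannot be told apart.

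The total of estimated counts per library ran from 670302 to 12952656. The median was 2987217 for the 15 libraries with UV and 8999443 for the 39 others, and the 3 libraries of D4 at 0 h with UV were the shallowest (670302 to 856794). Transcripts of 6 yolk protein genes, markers of adult hermaphrodites, summed to 562 to 2279 CPM (counts scaled to a fixed library total) in the 3 libraries of D4 at 0 h without UV, against at most 258 in any other library. In D1 dauers at 0 h the same sum was at most 0.550. Dauer marker genes (col-2, col-40, cut-1, hsp-12.6 and sod-3) all rose from L3 to D1, and 4 of the 5 fell from D1 to D4. The part of these differences in the results below was not tested.

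Of the 269 genes, 167 lie on chromosome V. That is 62.1% of the members, while chromosome V holds 24.9% of all genes in the table. On the WBcel235 build, 137 members have another member as their direct neighbour, which makes 93 neighbouring pairs. The longest annotated transcript has a median of 1343 nucleotides over the members. 4 members had no count in any library and 44 never reached 10 counts, whereas 70 had at least 10 counts in all 54 libraries. A gene entered a comparison if 3 or more of the libraries compared held 10 or more of its counts, and by this filter 154 to 191 members were tested in comparisons between 2 groups and in slopes.

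The members together held a small share of each library, and this share was larger in older dauers. It was 0.283% ± 0.0157 (SD, n = 3) of all counts in L3 larvae, 0.315% ± 0.00305 in D1 dauers, 0.428% ± 0.00597 on D4, 0.474% ± 0.00456 on D15 and 0.502% ± 0.000806 on D30. No library of one day overlapped with those of the next, and each successive difference had p = 0.1 in a two-sided exact permutation test, the smallest p that 3 against 3 libraries can give. Exit from D1 also went with a larger share, 0.440% ± 0.0119 at 24 h (exact permutation p = 0.1). On D4, D15 and D30 the share at 24 h was 0.963, 0.961 and 0.975 times that at 0 h, with exact permutation p of 0.3, 0.2 and 0.2. Without nhr-88 and nhr-97, the 2 most abundant members, the share was 0.270% on D1 and 0.410% on D30.

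**Figure D1:**
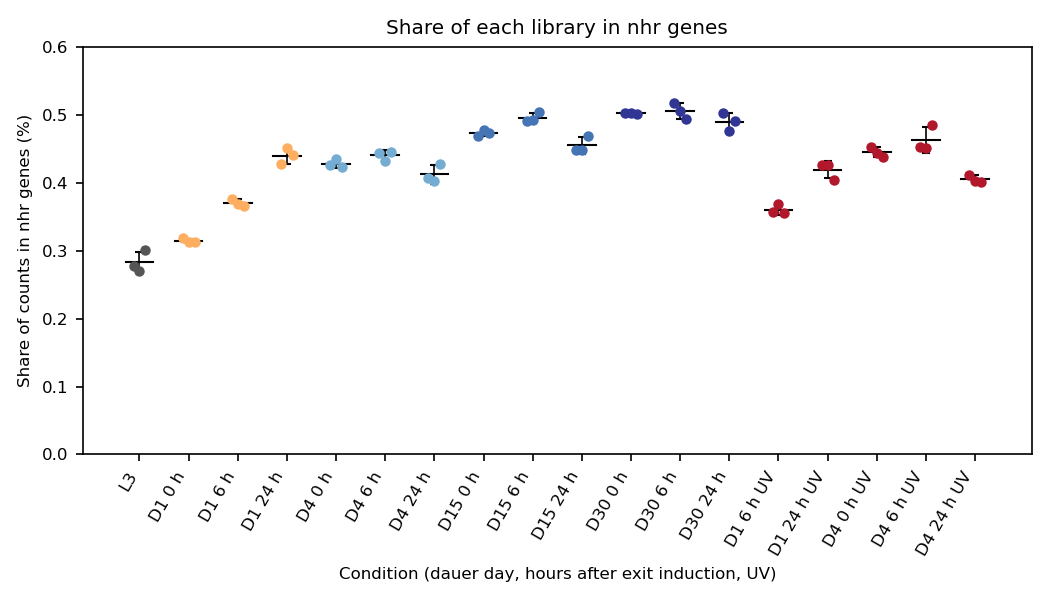
Share of each library's counts that fell in the 269 nhr genes, in percent, for the 18 conditions. Points are libraries, horizontal bars the mean of 3 and vertical bars 1 SD. The dauer libraries at 0 h sit near 0.315% on D1 and near 0.502% on D30, and L3 libraries are lowest at about 0.283%.

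Levels are given below as CPM after scaling by edgeR's trimmed mean of M-values (TMM). Per kilobase of the longest transcript, the most abundant member over the 13 conditions without UV was nhr-88 (WBGene00003678, chromosome II:2976639-2987023, plus strand) at 170.5 CPM per kb. It was followed by nhr-97 at 69.8 CPM per kb, nhr-18 at 63.6 and the fat regulator nhr-49 at 49.99. nhr-88 alone held 11.6% of the summed CPM of the members and nhr-97 held 7.10%. No function is given here for nhr-88, nhr-97 or nhr-18, and nhr-97 is named for its level, after its values were seen.

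When each of the 214 members that could be ranked was assigned to the condition without UV in which its mean was highest, 48 had their highest mean in D30 dauers at 0 h. This was 22.4% of the members, where 13.7% of all genes peaked there. 28 members peaked 6 h into exit from D15 (13.1%, against 7.33% of all genes) and 30 in L3 larvae (14.02%, against 23.2%). In dauers at 0 h, 5 peaked on D1 (2.34%, against 13.2%) and 2 on D4 (0.935%, against 7.93%). The 6 conditions of D15 and D30 together held the peak of 136 members (63.6%, against 41.3% of all genes). These are descriptions of the group means, with no test.

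**Figure D2:**
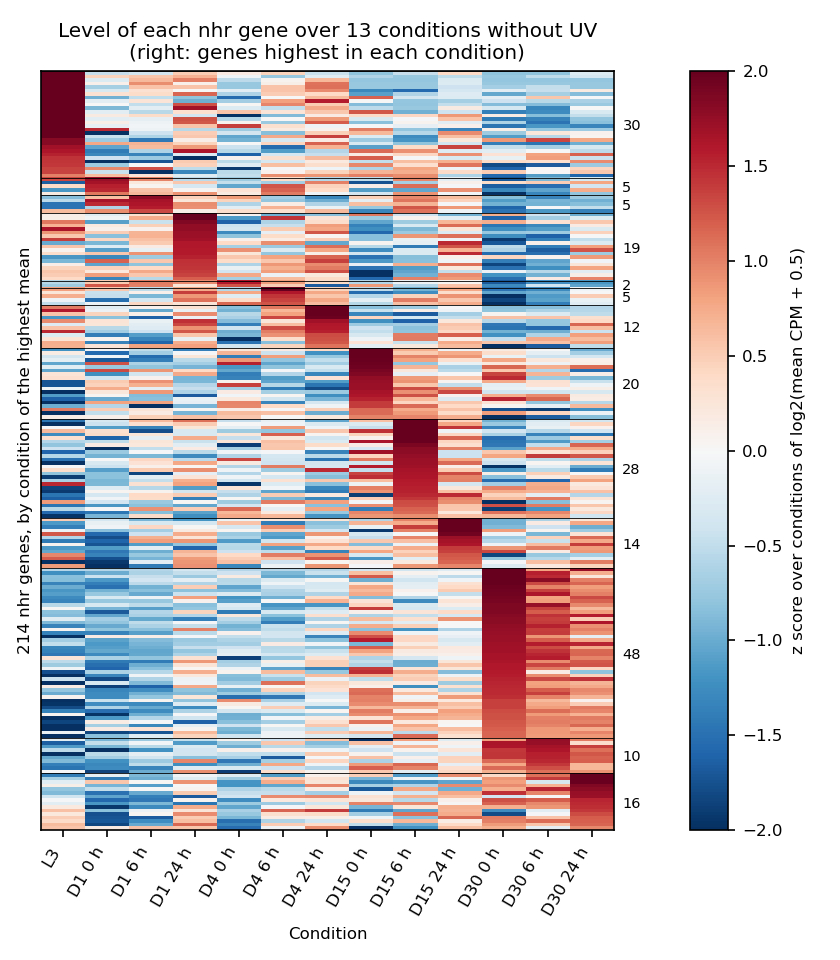
Level of 214 nhr genes over the 13 conditions without UV, as the z score over conditions of log2(mean CPM + 0.5), 1 gene to a row (colours saturate at the ends of the scale), ordered by the condition with the highest mean. The numbers on the right count the genes of each block: 30 peak in L3, 5 in D1 dauers at 0 h and 48 in D30 dauers at 0 h.

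D1 dauers were compared with L3 larvae to find the receptors that differ between the arrested and the growing larva. These groups also differ in temperature, as given above. L3 replicate 3 stood apart from the other L3 libraries (chi-square per degree of freedom over genes 23.4 and 29.5, against at most 7.23 for any other pair of replicates). Among the members 76 were lower and 39 higher in D1 dauers of 190 tested (edgeR quasi-likelihood test, two-sided, Benjamini-Hochberg adjusted p under 0.05). The 115 called members are 60.5% of those tested, while 75.6% of all 13419 genes tested were called, 38.7% higher and 36.9% lower. The median log2 change was -0.17 over the members and 0.04 over all genes tested. Without L3 replicate 3, 113 members were called. Of the 9 members with clear counterparts in other animals, 7 fell and 1 rose.

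Here and below, the largest rises and falls are those among called members with a mean count of 50 or more whose libraries did not overlap, and members with fewer counts may have larger fitted changes. The 3 largest falls from L3 to D1 came from a stretch of chromosome I. nhr-74 (WBGene00003664, I:11429014-11432156) stood at 37.9, 38.2 and 30.3 CPM in the L3 libraries and at 0.525, 0 and 0.807 in D1 dauers, a log2 change of -6.08 ± 0.34 (SE, adjusted p = 1.39e-06, edgeR). Its count was 0 in every library of D15 and D30 at 0 h, so that with a floor of 3 counts over the group L3 was at least 289-fold higher than D15 and at least 312-fold higher than D30. Its neighbour nhr-73 (I:11433671-11436018) fell by 4.36 ± 0.30 on the log2 scale (edgeR adjusted p = 5.25e-06), and nhr-245 (I:11477744-11480071) by 4.22 ± 0.80 (edgeR adjusted p = 0.00163). nhr-74 and nhr-245 passed the count filter only through the L3 libraries, so their tests could only find a fall. nhr-73 had 455 counts over the L3 libraries and 0 over those of D4, D15 and D30 at 0 h, and nhr-245 had 322 in L3 and 0 on D15 and D30. All 3 genes thus ranged from a clear level in L3 to none or almost none in long-term dauers.

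The largest rise was that of nhr-246 (WBGene00014192, V:15316477-15318524), which stood at 1.20, 1.35 and 0.538 CPM in L3 and at 28.6, 26.8 and 26.5 in D1 dauers. The groups did not overlap, and the fitted log2 change was 4.74 ± 0.22 (edgeR adjusted p = 5.26e-07). nhr-62, an HNF4-related receptor needed for the longer life of worms under dietary restriction, rose by 1.98 ± 0.27 on the log2 scale (edgeR adjusted p = 0.000237). Its 3 libraries held 9.60, 7.70 and 18.2 CPM in L3 and 47.9, 46.0 and 44.0 in D1 dauers. nhr-3, nhr-92 and nhr-69 rose by 1.75, 1.65 and 1.40. NHR-69 works with the Smad protein DAF-8 in a TGF-beta pathway that limits insulin release.

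The receptors of the molting cycle were followed over every condition. NHR-23, the counterpart of mammalian ROR and Drosophila DHR3, NHR-25, the counterpart of Drosophila FTZ-F1 and mammalian SF-1 and LRH-1, and NHR-85, the counterpart of Rev-erb and Drosophila E75, act in the epidermis or in the timing of each larval stage. All 3 were lower in D1 dauers than in L3. nhr-23 (WBGene00003622, I:7214745-7221299) stood at 21.8, 19.0 and 33.3 CPM in L3 and at 6.96, 3.29 and 5.76 in D1 dauers, a log2 change of -2.15 ± 0.29 (edgeR adjusted p = 0.000223). nhr-25 (WBGene00003623, X:13008493-13013964) went from 43.7, 42.6 and 33.0 CPM in L3 to 19.0, 16.1 and 14.4, a change of -1.24 ± 0.15 (edgeR adjusted p = 0.000119). nhr-85 (WBGene00003675, I:13055201-13062122) held 43.3, 47.4 and 36.5 CPM in L3 and 7.75, 9.86 and 8.07 in D1 dauers, a change of -2.30 ± 0.15 (edgeR adjusted p = 3.09e-06). For none of them did an L3 library reach the range of the D1 libraries.

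Over the arrest the 3 receptors took different courses. nhr-25 fell from a mean of 16.5 CPM on D1 to 8.48 on D4, 6.54 on D15 and 2.38 on D30, a log2 slope of -2.46 ± 0.29 from D1 to D30 (edgeR adjusted p = 2.57e-05). nhr-23 had means of 5.34, 5.58, 2.94 and 5.56 CPM on the 4 days, and its slope of -0.02 ± 0.36 did not pass the test (edgeR adjusted p = 0.959). nhr-85 was lower on D4 (6.52, 7.09 and 5.44 CPM) than on D15 (24.5, 21.6 and 27.1), where it rose by 1.89 ± 0.15 on the log2 scale (edgeR adjusted p = 2.49e-10). It then fell by 0.93 ± 0.12 to D30 (edgeR adjusted p = 4.65e-07).

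Exit from D4 was the exit in which all 3 molting receptors were called higher. The exit slope is the fitted log2 change over 24 h, from the libraries at 0, 6 and 24 h. nhr-25 stood at 8.62, 10.2 and 6.62 CPM at 0 h, 11.3, 10.1 and 15.55 at 6 h and 28.3, 23.5 and 17.9 at 24 h on D4, a slope of 1.39 ± 0.22 (edgeR adjusted p = 0.000681). nhr-85 had a slope of 1.28 ± 0.32 there (edgeR adjusted p = 0.00866), reaching 20.8, 15.9 and 19.6 CPM at 24 h. nhr-23 had 0.80 ± 0.23 (edgeR adjusted p = 0.0182), with 10.5, 10.98 and 11.1 CPM at 24 h, and lost the call when D4 at 0 h replicate 2 was left out (0.71). nhr-91, the counterpart of the mammalian germ cell nuclear factor GCNF, rose as well on D4, from 4.84, 3.77 and 2.79 CPM at 0 h to 17.7, 16.6 and 14.4 at 24 h, a slope of 1.72 ± 0.37 (edgeR adjusted p = 0.00411). The D4 libraries at 24 h lie above those at 0 h for each of the 4 genes. From 6 to 24 h alone, which leaves the libraries of 0 h out of the difference, nhr-25 rose by 0.89 ± 0.22 and nhr-91 by 0.67 ± 0.23 (edgeR adjusted p = 0.00496 and 0.0328). nhr-85 and nhr-23 had 0.44 and 0.30 there and did not pass the test (edgeR adjusted p = 0.118 and 0.299). Replicate 2 of D4 at 6 h and at 24 h also held yolk transcripts, at 168 and 258 CPM, against at most 1.19 in the other 4 libraries.

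Exit from the other days did not call all 3 together. A call on 1 day and none on another does not show that the days differ. The interaction of exit slope and dauer day, with the 4 days in 1 fit, tests this. It was called for nhr-25 and nhr-85 (edgeR adjusted p = 2.52e-05 and 0.000345) and not for nhr-23 (edgeR adjusted p = 0.0523). From D1, nhr-25 fell by 0.33 ± 0.13 on the log2 scale (edgeR adjusted p = 0.044), nhr-23 and nhr-85 did not pass the test, and nhr-91 fell, with a slope of -0.87 ± 0.28 (edgeR adjusted p = 0.0193), a call lost without D1 at 24 h replicate 2 or replicate 3 (-0.81 and -0.67). From D15, nhr-23 rose by 1.03 ± 0.20 on the log2 scale (edgeR adjusted p = 0.00239), and nhr-25 and nhr-85 did not pass the test. From D30, nhr-23 rose by 0.45 ± 0.17 and nhr-25 by 0.63 ± 0.24 (edgeR adjusted p = 0.0447 and 0.0451), while nhr-85 had -0.06. These calls for nhr-25 from D1, nhr-23 from D30 and nhr-25 from D30 were lost in 7, 7 and 6 of the 9 fits that left out 1 library. nhr-85 from D15 had a slope of -0.76 (edgeR adjusted p = 0.0701). Of the 9 conserved receptors, exit from D4 raised 6 and lowered 1, exit from D1 raised 2 and lowered 4, exit from D15 raised 2 and lowered 1, and exit from D30 raised 3 and lowered 1. Of all genes, 22.6% rose and 21% fell on exit from D4, 22.4% and 19.9% from D15 and 24.6% and 22.2% from D30, and from D1 61.9% were called, 31.4% as lower. The 8 molting effector genes that are not members (mlt-8, mlt-9, mlt-10, mlt-11, noah-1, noah-2, nas-36 and nas-37, which make or remove cuticle) were all lower in D1 dauers than in L3, all fell over the arrest and all rose on exit from D4. Of 6 larval oscillator regulators (grh-1, myrf-1, blmp-1, bed-3, ztf-6 and lin-42), 5 rose on exit from D4 and 5 fell on exit from D1.

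**Figure D3:**
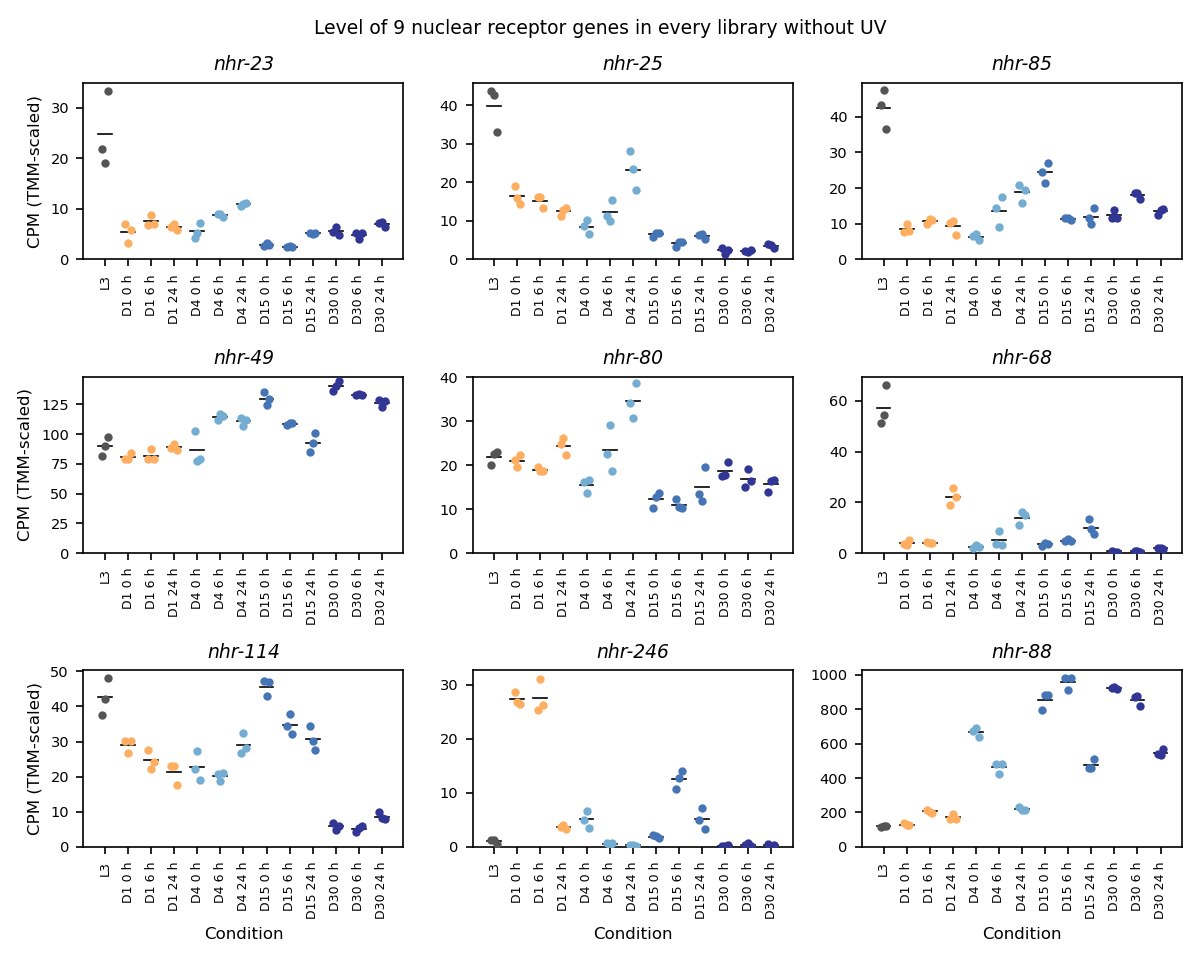
CPM after TMM scaling of 9 receptor genes in every library of the 13 conditions without UV. Points are libraries and bars the mean of 3; all y axes start at 0. nhr-23, nhr-25 and nhr-85 are highest in L3 and climb over the 24 h of exit from D4, nhr-68 is at 22.3 CPM 24 h into exit from D1, and nhr-246 is at 27.3 CPM in D1 dauers and 0.184 in D30 dauers.

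Over the days of arrest more members rose than fell. The slope from D1 to D30 called 78 members higher and 25 lower of 182 tested (edgeR quasi-likelihood test, adjusted p under 0.05). The 103 called members are 56.6% of those tested, close to the 56.7% of all 13884 genes, but among all genes 24.9% were higher and 31.8% lower. The median slope was 0.49 over the members and -0.09 over all genes tested. Without the 3 libraries of D4, which held the yolk transcripts, the slope called 83 members higher and 24 lower. On chromosome V 54 of 116 tested members rose and 15 fell, with a median slope of 0.63, and on the other chromosomes 24 of 66 rose and 10 fell, with a median of 0.22.

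**Figure D4:**
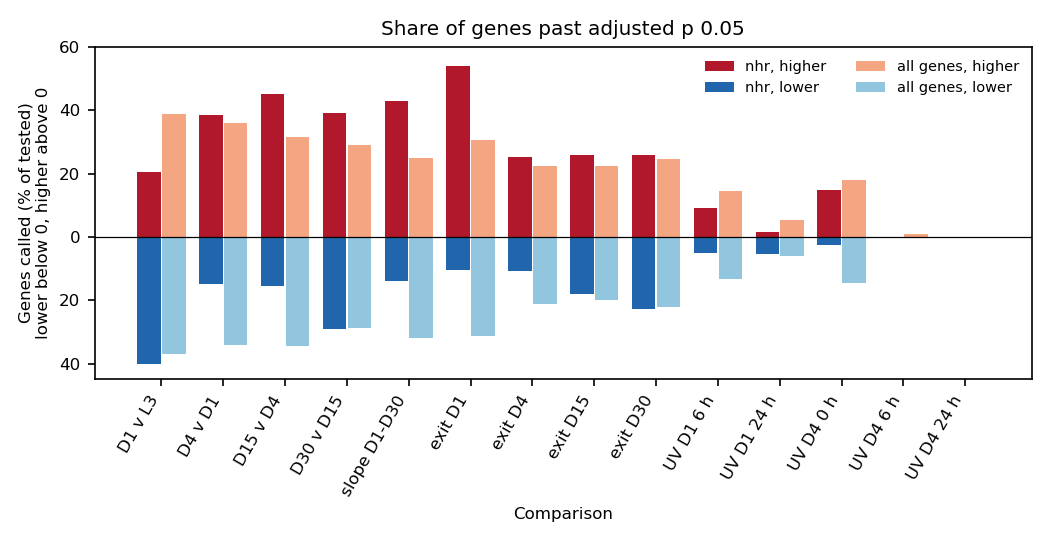
Share of genes past an adjusted p of 0.05 in each comparison, in percent of the genes tested, higher above 0 and lower below 0, for the nhr genes (dark) and all genes (light). 42.9% of the nhr genes rose over the days of arrest and 13.7% fell, 53.9% rose on exit from D1 and 10.5% fell, and none was called for UV at D4 6 h or 24 h.

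Day by day, 70 members rose and 27 fell from D1 to D4, when 70.1% of all genes were called (36% higher and 34.1% lower). From D4 to D15, 82 rose and 28 fell, with 66% of all genes called (31.6% higher and 34.4% lower). From D15 to D30, 71 rose and 53 fell, with 57.8% of all genes called (28.9% higher and 28.8% lower). The member medians were 0.21, 0.38 and 0.06 on the log2 scale, against 0.05, -0.02 and 0.00058 for all genes. Leaving out the D4 library with the most yolk transcripts gave 81 called members from D1 to D4 and 98 from D4 to D15, in place of 97 and 110.

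The largest rises over the arrest were those of nhr-18 and nhr-99, both with a slope of 3.76 on the log2 scale, nhr-170 with 3.40, nhr-101 with 2.97 and nhr-19 with 2.75. nhr-18 (WBGene00003617, V:2227203-2228986) stood at 12.604, 12.2 and 12.2 CPM on D1, 41.4, 39.2 and 35.1 on D4, 82.2, 83.9 and 77.8 on D15 and 261, 258 and 255 on D30 (slope SE 0.35, edgeR adjusted p = 4.01e-06). It thus rose 20.9 times between the means of D1 and D30, with no overlap between neighbouring days. Its direct neighbour nhr-103 was among the 5 largest rises from D1 to D4 (1.52 ± 0.13, edgeR adjusted p = 7.48e-10). nhr-170 (V:18796061-18800826) stood at 9.19, 10.95 and 11.3 CPM on D1 and at 121, 114.05 and 112 on D30. The most abundant member, nhr-88, took most of its rise early, from 136, 126 and 126 CPM on D1 to 675, 689 and 637 on D4 (2.45 ± 0.05, edgeR adjusted p = 3.36e-21), and reached 922, 929 and 914 on D30.

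The deepest fall over the arrest was that of nhr-246, the member with the largest rise from L3 to D1. Its libraries held 28.6, 26.8 and 26.5 CPM on D1, 5.05, 6.65 and 3.53 on D4, 2.12, 1.96 and 1.57 on D15 and 0.105, 0.139 and 0.307 on D30, a slope of -6.78 ± 0.64 (edgeR adjusted p = 4.28e-06). The D30 mean rests on 5 counts over 3 libraries. nhr-137, nhr-28 and nhr-57 fell by 2.39, 2.34 and 1.83 on the log2 scale. nhr-28 did not fall evenly: it stood at 47.5, 44.9 and 51.6 CPM on D1, was highest on D4 at 84.4, 94.2 and 79.98, and was at 13.4, 14.05 and 15.3 on D30. NHR-57 is known as a target of the hypoxia factor HIF-1.

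Of the 6 members of the list of fat receptors and their partners, 1 was called between L3 and D1 dauers, when 75.6% of all genes were. This was nhr-62, which rose as given above. From D1 to D4 all 6 were called, 3 higher and 3 lower, when 70.1% of all genes were, and the log2 changes ran from -0.92 (nhr-13) to 0.50 (nhr-76). NHR-49, a functional counterpart of PPAR-alpha, sets fatty acid desaturation and the burning of fat in fasting, and NHR-80 drives fatty acid desaturases with it. nhr-49 (WBGene00003639, I:9869651-9874680) had a log2 change of -0.12 ± 0.07 from L3 to D1 (edgeR adjusted p = 0.164), and nhr-80 (WBGene00003670, III:11985-14869) one of -0.03 ± 0.09 (edgeR adjusted p = 0.83). Neither passed the test, and for both the L3 and D1 libraries overlapped after TMM scaling.

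nhr-49 then rose over the arrest, from 79.4, 78.7 and 83.9 CPM on D1 and 102, 77.8 and 79.4 on D4 to 135, 124 and 130 on D15 and 136, 140 and 145 on D30. All libraries of D15 and D30 lie above all those of D1 and D4, and the slope was 0.87 ± 0.13 (edgeR adjusted p = 0.000183). The step from D1 to D4 (0.18 ± 0.08, edgeR adjusted p = 0.0489) rested on D4 replicate 1, since it was -0.02 without the libraries of replicate 1, and was lost without those of replicate 2 (0.18) or 3 (0.21). On exit nhr-49 rose from D1 by 0.22 ± 0.06 (edgeR adjusted p = 0.00603) and fell from D15 by 0.38 ± 0.10 (edgeR adjusted p = 0.00938), a call lost without D15 at 24 h replicate 1 (-0.34). It was also called lower on exit from D30, a call lost in 5 of the 9 fits that left out 1 library.

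nhr-80 had its highest level 24 h into exit from D4, at 34.1, 30.8 and 38.7 CPM, after 16.2, 13.7 and 16.6 at 0 h. The exit slope was 1.04 ± 0.19 (edgeR adjusted p = 0.00153), and the libraries did not overlap. nhr-80 was also called higher on exit from D1, in all 9 fits that left out 1 library, though 6 h against 0 h alone gave -0.14. Over the arrest its means were 21.1 CPM on D1, 15.5 on D4, 12.3 on D15 and 18.7 on D30. It fell from D4 to D15 by 0.42 ± 0.13 (edgeR adjusted p = 0.00845), a call lost without D4 replicate 3 (-0.35) or without replicate 1 of all days (-0.29), and rose from D15 to D30 by 0.66 ± 0.12 (edgeR adjusted p = 3.82e-05).

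NHR-13 and NHR-66 are among the known partners of NHR-49. nhr-13 fell over the arrest, with a slope of -1.09 ± 0.29 (edgeR adjusted p = 0.00641), from 13.8, 11.5 and 15.21 CPM on D1 to 4.95, 5.70 and 4.30 on D30. nhr-66 had a slope of 0.19 ± 0.13 that did not pass the test (edgeR adjusted p = 0.233) and rose on exit from D30 by 0.63 ± 0.05 (edgeR adjusted p = 8.68e-07), from 54.9, 50.4 and 52.6 CPM to 80.5, 78.6 and 81.7. A list of 7 genes that are not members covers the coactivator mdt-15 and targets of NHR-49. Among them are fat-5, fat-6, acs-2, fmo-2 and icl-1. In each comparison given here 6 of the list were tested. From L3 to D1, 1 rose and 4 fell (38.7% and 36.9% of all genes). From D1 to D4, 1 rose and 2 fell (36% and 34.1%). From D4 to D15, 4 rose and 2 fell (31.6% and 34.4%). From D15 to D30, 1 rose and 5 fell (28.9% and 28.8%). On exit from D1 all 6 rose, when 61.9% of all genes were called, 31.4% as lower. On exit from D4, D15 and D30, 2, 2 and 4 rose, when 22.6%, 22.4% and 24.6% of all genes did. On exit from D30, 1 fell (22.2% of all genes). fat-5 and fat-6, both delta-9 desaturase genes, went opposite ways over the arrest, at -7.01 and 3.33 on the log2 scale.

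Of the 5 members listed as nutrient receptors, 3 fell and 1 (nhr-69) rose from L3 to D1, when 36.9% of all genes fell and 38.7% rose. Their median log2 change was -0.44, and nhr-68 had the largest change of the 5. NHR-10 and NHR-68 together turn on the propionate shunt, which breaks down propionate when vitamin B12 is short. nhr-68 (WBGene00003658, V:11573440-11575709) stood at 51.2, 54.6 and 66.3 CPM in L3 and at 3.68, 3.29 and 5.07 in D1 dauers, a log2 change of -3.78 ± 0.17 (edgeR adjusted p = 4.28e-07). Its lowest levels were on D30, at 1.05, 0.556 and 0.615 CPM. It rose on exit from every day. The slopes were 2.78 ± 0.22 from D1, 2.28 ± 0.34 from D4, 1.51 ± 0.21 from D15 and 1.44 ± 0.29 from D30 (edgeR adjusted p = 7.63e-07, 0.000423, 0.000247 and 0.00123).

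The time course of nhr-68 on D1 was late. It held 3.68, 3.29 and 5.07 CPM at 0 h, 4.27, 4.15 and 3.88 at 6 h and 19.1, 25.5 and 22.2 at 24 h. The level at 24 h was still below every L3 library. nhr-101, which lies less than 1 kb away (V:11570476-11572549), had a similar course on D1, with 4.86, 3.29 and 4.15 CPM at 0 h, 5.07, 3.59 and 4.83 at 6 h and 21.9, 27.9 and 25.5 at 24 h, the largest rise by that rule (2.91 ± 0.20, edgeR adjusted p = 2.95e-07). Over the arrest, in contrast, nhr-101 rose from a mean of 4.10 CPM to 35.9, while nhr-68 fell from 4.01 to 0.741 (slope -1.91 ± 0.52, edgeR adjusted p = 0.00768).

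nhr-10, the partner of nhr-68, moved far less, with a log2 change of -0.44 ± 0.10 from L3 to D1 (edgeR adjusted p = 0.00537) and means between 37.6 and 60.3 CPM over the 13 conditions. All 5 genes of the propionate shunt that are not members (acdh-1, ech-6, hach-1, hphd-1 and alh-8) were lower in D1 dauers than in L3. 4 of the 5 rose on exit from D1, and 3 rose and 2 fell on exit from D15 and from D30. Over the arrest alh-8, the last enzyme of the shunt, rose (4.48 on the log2 scale) and ech-6 fell (-1.001).

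NHR-114, which protects the germline when vitamin B12 is low, and NHR-14, which acts in intestinal iron uptake, shared a peak on D15. nhr-114 stood at 30.1, 26.8 and 30.19 CPM on D1, 22.1, 27.3 and 19.0 on D4, 47.2, 42.9 and 46.9 on D15 and 6.73, 4.87 and 5.84 on D30. It rose by 0.96 ± 0.10 from D4 to D15 and fell by 2.89 ± 0.12 from D15 to D30 (edgeR adjusted p = 3.40e-08 and 2.17e-15). nhr-14 held 33.6, 35.4 and 36.2 CPM on D15 and 6.63, 5.01 and 5.94 on D30, a fall of 2.50 ± 0.14 (edgeR adjusted p = 9.40e-13). No library of D30 overlapped with D15 for either gene, and neither had a slope over the whole arrest that passed the test (edgeR adjusted p = 0.0816 and 0.646).

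Among receptors of stress and excretion, nhr-8 stood out. NHR-8 is related to DAF-12 and to vertebrate receptors for vitamin D and xenobiotics and acts in toxin resistance and cholesterol balance. nhr-8 fell from 53.2, 50.4 and 67.97 CPM in L3 to 17.6, 19.4 and 20.5 in D1 dauers (-1.55 ± 0.13, edgeR adjusted p = 1.80e-05) and then rose to 53.4, 48.98 and 44.0 on D4 and 117, 115 and 123 on D30 (slope 2.04 ± 0.32, edgeR adjusted p = 0.000206). On exit from D1 it reached 74.01, 87.5 and 74.9 CPM at 24 h (2.23 ± 0.13, edgeR adjusted p = 6.85e-08), and on exit from D30 it fell by 0.47 ± 0.12 (edgeR adjusted p = 0.00702). The direction on exit was thus opposite on the 2 days, and the interaction of slope and day was called (edgeR adjusted p = 2.39e-07). nhr-57 rose on exit from D15, from 13.5, 13.7 and 15.0 CPM at 0 h to 52.2, 46.6 and 36.5 at 24 h (1.86 ± 0.18, edgeR adjusted p = 2.31e-05). It was called higher on exit from D1 and from D30 as well, and its highest mean without UV was at 24 h on D1.

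nhr-86, a sensor of a bacterial phenazine, nhr-31, needed in the excretory canal, and nhr-176, which acts in the detoxification of the drug thiabendazole, moved less. From L3 to D1 nhr-31 fell by 0.40 ± 0.09 (edgeR adjusted p = 0.00332) and nhr-176 rose by 0.95 ± 0.15 (edgeR adjusted p = 0.000661). Among the receptors of tissue development, nhr-6, the counterpart of NR4A receptors, which acts in the spermatheca, and nhr-67, the counterpart of tailless, were lower in D1 dauers than in L3 by 1.26 ± 0.24 and 0.67 ± 0.16 on the log2 scale (edgeR adjusted p = 0.00175 and 0.00509). nhr-2, known from the early embryo, had 3 counts over the L3 libraries, 1 over D1 at 0 h, 12 over D4, 5 over D15 and 67 over D30. In CPM it stood at 0.421, 0.443 and 1.18 on D4, in the libraries that held the yolk transcripts. On D30 it stood at 2.00, 3.06 and 2.66 (slope 3.31 ± 0.87, edgeR adjusted p = 0.0063). Among dauers at 0 h, nhr-2 passed the count filter only through the D30 libraries, so its slope test could only find a rise.

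Exit from each dauer day was then compared over the whole family. From D1, 103 members rose and 20 fell of 191 tested, while 61.9% of all 13729 genes were called (31.4% lower and the rest higher), and the median slope was 0.44 over the members and -0.01 over all genes. From D4, 44 rose and 19 fell of 175, with 43.6% of all genes called (22.6% higher and 21% lower). From D15, 49 rose and 34 fell of 188, with 42.3% of all genes called (22.4% higher and 19.9% lower). From D30, 48 rose and 42 fell of 185, with 46.7% of all genes called (24.6% higher and 22.2% lower). The member medians from D4, D15 and D30 were 0.19, 0.12 and -0.01, against -0.04, 0.02 and 0.02 over all genes. The count from D4 was 41 without D4 at 24 h replicate 3, and that from D15 was 55 without D15 at 24 h replicate 1.

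Most of the rise on exit from D1 fell between 6 and 24 h. With exit hour as a category, 49 members rose and 10 fell from 0 to 6 h on D1 (41.5% of all genes called, 20.8% higher and 20.7% lower), and 96 rose and 19 fell from 6 to 24 h (61.2%, 29.7% higher and 31.5% lower). On D4 the order was the other way, with 53 up and 18 down in the first 6 h (46.3% of all genes called, 23.5% higher and 22.8% lower) and 21 up and 18 down after that (36.5%, 20.3% higher and 16.3% lower). On D15 the 2 steps called 54 up and 50 down (27% and 26.6% of all genes, 53.6% in all) and then 50 up and 43 down (26.5% and 23.6%, 50% in all). On D30 they called 25 up and 26 down (13.3% and 12.3%, 25.6% in all) and then 43 up and 36 down (20.9% and 20.3%, 41.2% in all). Of the neighbouring pairs of members, 58 were tested on D1, and in 30 of the 31 pairs with both called the 2 neighbours moved the same way (96.8%), while this held for 63.6% of all neighbouring pairs of protein-coding genes with both called. Most called members rose on exit from D1, so that pairs of risers are frequent there. On exit from D30 it held for 9 of 12 member pairs (75%, against 58.5% of all pairs).

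The members with the largest rises on exit from D1 after nhr-101 were nhr-201, nhr-68, nhr-55 and nhr-8, with slopes of 2.82, 2.78, 2.29 and 2.23. nhr-201 (V:464828-467509) went from 3.02, 3.29 and 3.11 CPM to 20.3, 23.7 and 19.7 at 24 h (SE 0.14, edgeR adjusted p = 1.78e-08). The largest fall was that of nhr-246, from 28.6, 26.8 and 26.5 CPM at 0 h through 25.3, 31.1 and 26.2 at 6 h to 3.75, 4.09 and 3.31 at 24 h (-2.89 ± 0.33, edgeR adjusted p = 1.56e-05). At 6 h the libraries overlapped those at 0 h, and at 24 h they did not.

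From D4, nhr-50 (1.604), nhr-25 (1.39), nhr-101 (1.32), nhr-85 (1.28) and nhr-11 (1.20) had the largest rises among members with a mean count of 50 or more and no overlap. Of the listed receptors below that count, nhr-68 (2.28) and nhr-91 (1.72) rose more. nhr-88 had the largest fall, from 675, 689 and 637 CPM through 480, 426 and 483 at 6 h to 230, 216 and 217 at 24 h (-1.57 ± 0.08, edgeR adjusted p = 3.72e-07). From D15, nhr-99 (2.22) and nhr-57 (1.86) led the rises and nhr-43 (-1.48) and nhr-237 (-1.46) the falls. From D30, nhr-139 (1.89) and nhr-202 (1.87) led the rises and nhr-109 (-1.36) and nhr-170 (-1.14) the falls. nhr-170 stood at 121, 114.05 and 112 CPM on D30 at 0 h and at 48.1, 48.6 and 56.999 at 24 h, so that it was still above every D1 library.

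A test of the interaction of exit slope and dauer day, with the 4 days in 1 fit, called 123 of 210 members, while 64.2% of all genes were called. nhr-105 and nhr-17 had the smallest p (edgeR adjusted p = 1.20e-12 and 1.26e-11). nhr-17 rose on D1 from 62.9, 54.2 and 58.3 CPM to 176.4, 223 and 199.96 at 24 h, whereas on D30 it went from 91.6, 89.2 and 88.1 to 40.8, 43.7 and 40.8. The count of 123 was 78 without the libraries of replicate 3, the fewest called with any replicate left out. The receptor gene daf-12, which is not a member, fell on exit from all 4 days, by 0.87, 0.64, 0.36 and 0.34 on the log2 scale.

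UV given on dauer day 1 changed few members. At D1 6 h, 17 were higher and 9 lower after UV of 183 tested, while 27.8% of all 13463 genes were called (14.4% higher and 13.4% lower). The count of 26 was 16 to 17 without any 1 of the 3 libraries of D1 at 6 h that had no UV. At D1 24 h, 3 were higher and 10 lower of 187, with 11.7% of all genes called (5.54% higher and 6.13% lower). At D4 0 h, 3 days after UV, 24 were higher and 4 lower of 162, with 32.5% of all genes called (18.1% higher and 14.4% lower).

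At D4 6 h and D4 24 h no member was called by edgeR's quasi-likelihood test among 154 and 169 tested, while 1.38% (0.936% higher and 0.441% lower) and 0.134% (0.126% higher and 0.00838% lower) of all genes were. At an unadjusted p under 0.05, 12 and 11 members passed, and DESeq2 called 0 at both times. Where nothing differs, a share near 0.05 of tests passes that unadjusted threshold, so these counts alone do not show an effect of UV. With all 54 libraries in 1 fit 3 members were called at 6 h, and without a filter on low counts 1 was. The libraries at these times were shallow (1141284 to 4524995 counts), so a change too small to detect at this depth may have been missed.

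The clearest early response to UV was that of nhr-3. At D1 6 h it stood at 45.8, 43.6 and 41.9 CPM without UV and at 88.2, 93.4 and 89.7 with UV (1.04 ± 0.06, edgeR adjusted p = 4.24e-07), with no overlap. In D1 dauers at 0 h, before exit, nhr-3 stood at 70.6, 75.2 and 75.7 CPM. At D1 24 h the UV libraries held 53.6, 44.0 and 41.9 CPM and overlapped with the others at 46.7, 56.0 and 45.3. nhr-58 rose by 1.01 ± 0.16 at D1 6 h (edgeR adjusted p = 0.000653). At D1 24 h nhr-201 was lower after UV, at 11.5, 9.60 and 10.6 CPM against 20.3, 23.7 and 19.7 (-1.03 ± 0.12, edgeR adjusted p = 0.000186), and nhr-57 was higher, at 66.2, 62.4 and 67.6 against 46.1, 51.4 and 45.9 (0.43 ± 0.07, edgeR adjusted p = 0.00141).

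At D4 0 h the largest rises after UV among members with a mean count of 50 or more and no overlap were those of nhr-11 (1.88), nhr-3 (1.54), nhr-61 (1.51) and nhr-84 (1.11). Of the listed receptors below that count, nhr-68 (1.66), nhr-6 (1.48), nhr-67 (1.27) and nhr-14 (1.23) rose as well. nhr-11 stood at 14.7, 16.2 and 17.6 CPM without UV and at 69.03, 56.9 and 43.5 with UV (SE 0.19, edgeR adjusted p = 5.92e-06). nhr-61 stood at 28.6, 19.5 and 24.3 without UV and at 78.3, 55.6 and 60.4 with UV (SE 0.18, edgeR adjusted p = 3.49e-05). nhr-48, a relative of nhr-8 and daf-12, fell from 92.1, 90.7 and 85.1 CPM to 34.0, 45.2 and 44.7 (-1.04 ± 0.13, edgeR adjusted p = 4.02e-05). The groups of these genes did not overlap. nhr-25 was also higher after UV, at 18.5, 18.1 and 14.5 CPM against 8.62, 10.2 and 6.62 (1.11 ± 0.28, edgeR adjusted p = 0.00813).

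The same comparison moved other genes strongly. All 6 yolk genes were lower in the UV libraries, with a summed level of 0 to 5.45 CPM against 562 to 2279, and 5 of 7 tested molting effectors and 4 of 5 dauer markers were higher. The UV libraries of D4 at 0 h had 81 to 103 members with at least 10 counts, and those without UV 162 to 174. The part of the yolk-bearing material and of the low depth in the values of D4 at 0 h was not tested.

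The effect of UV differed between the 3 hours on D4 for 20 members, 11.4% of those tested, with 22.8% of all genes called in the same interaction test. nhr-11 (edgeR adjusted p = 5.97e-06), nhr-3 (0.000148), nhr-61 (0.000183), nhr-48 (0.000193) and nhr-88 (0.00327) had the smallest p. nhr-11 at 24 h held 54.6, 44.1 and 41.3 CPM with UV and 44.9, 42.4 and 48.2 without, so that the groups overlapped there. The count of 20 was 4, 11 and 10 without the libraries of replicate 1, 2 and 3, and nhr-88 lost its call without replicate 1.

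**Figure D5:**
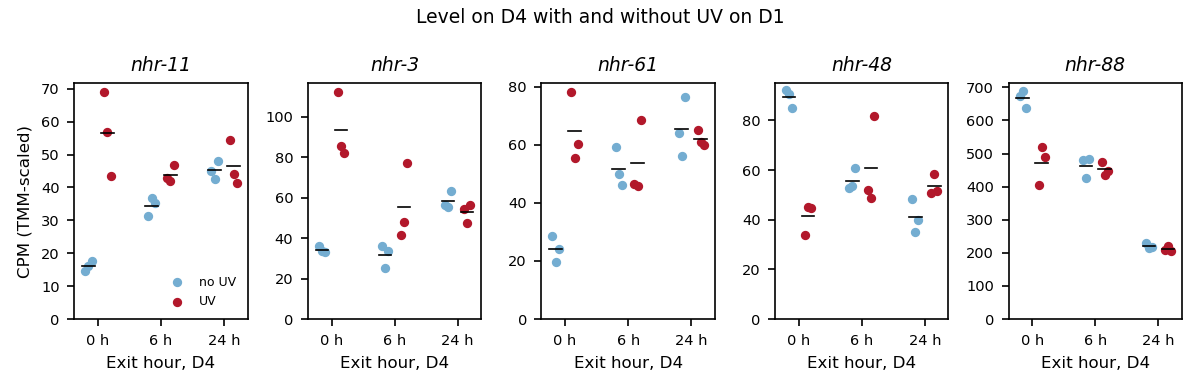
CPM after TMM scaling of the 5 members with the smallest p in the test of UV by hour, in D4 libraries at 0, 6 and 24 h without UV (blue) and with UV on D1 (red). Points are libraries, bars the mean of 3, and y axes start at 0. The groups are apart at 0 h for all 5 genes and overlap at 24 h for nhr-11 and nhr-61. On this scale 1 UV library each of nhr-3 and nhr-88 also lies within the range without UV at 24 h, which is not so without TMM scaling.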

How the data were processed

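Per the study's methods, the authors cleaned the reads with fastp. Salmon then assigned them to transcripts of WormBase ParaSite release WBPS15, and tximport summed these to genes. The deposited values are estimated counts per gene, not scaled for library size, and were rounded to whole numbers here (8.49% to 64.7% of a library's values had decimals). Salmon divides reads between near-identical transcripts, so values of recently duplicated members may be shared between copies.

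Symbols and coordinates came from the Ensembl release 115 annotation of WBcel235, and 19865 of 19909 identifiers had a symbol there. Genes for which 3 or more of the libraries compared held 10 or more counts were fitted together, scaled by TMM and tested by glmQLFit and glmQLFTest in edgeR 4.0.16 (R 4.3.3), two-sided, with Benjamini-Hochberg adjustment over all genes tested and a threshold of 0.05. Slopes over dauer day or exit hour are given as the log2 change over the whole span. DESeq2 1.42.0 was an alternative. Shares of counts were compared by exact permutation in Python 3.11.15. The fits were tested on simulated data.

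The genes and lists described were chosen with earlier results of these data known. Members are named if they are in 1 of 6 role lists, or among up to 5 rises and 5 falls per comparison whose mean count reaches 50 and whose extreme groups do not overlap in share of the library's counts, or, for interactions, among the 5 smallest p. Exit hour as a category, the slope without D4 and the fits without the D4 library richest in yolk transcripts were added after seeing the data. Each library comes from 1 of 3 biological replicates per condition, and no 2 libraries were identical. The p-values measure the spread between these replicates. Those of slopes, and of the test of slope by dauer day, also take in departures of the time points from a straight line.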

Additional observations from a re-analysis of the deposited data

Results flagged for a closer look

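The exit slope differed between dauer days for 123 of 210 members. This was by a test of the difference itself (edgeR interaction test with the 4 days in 1 fit). The called members are 58.6% of those tested, while 64.2% of all genes were called. The 5 smallest adjusted p belonged to nhr-105 (1.20e-12), nhr-17 (1.26e-11), nhr-64 (1.51e-11), nhr-135 (1.37e-09) and nhr-18 (2.31e-09), all from edgeR. nhr-105 and nhr-17 were higher at 24 h than at 0 h in every library of D1 and lower in every library of D15. nhr-64 was higher at 24 h on D1 (34.0, 38.7 and 32.5 CPM against 21.5, 24.3 and 22.9) and lower on D30 (41.2, 40.1 and 39.1 against 80.7, 79.4 and 73.7).

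The effect of UV differed between the hours of D4, in the same kind of edgeR interaction test, for 20 members, 11.4% of those tested. Of all genes, 22.8% were called in that test. The 5 smallest adjusted p belonged to nhr-11 (5.97e-06), nhr-3 (0.000148), nhr-61 (0.000183), nhr-48 (0.000193) and nhr-88 (0.00327). The libraries of D4 at 0 h with UV had 670302 to 856794 counts, and those without UV held the yolk transcripts given above. Their part in these values was not tested.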

How the results depend on the processing

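Of 120 alternative counts of called members, not including those with libraries left out at the end of this paragraph, 109 stayed within 1.5 times the count given. The others were, with an adjusted p under 0.01, 27 for exit from D4, 49 for exit from D15, 10 and 7 for UV at D1 6 h and 24 h and 7 for UV by hour. DESeq2 called 13 and 8 for UV at D1 6 h and 24 h. At UV D4 6 h, 1 was called without a filter and 3 with all 54 libraries in 1 fit. With 6 h against 0 h alone, exit from D1 called 65 and exit from D30 called 55. Leaving out libraries gave 92 to 113 for D1 against L3, 90 to 107 for the slope over dauer days, 70 to 81 for D4 against D1, 91 to 98 for D15 against D4, 106 to 109 for D30 against D15, 102 to 122, 41 to 67, 55 to 88 and 69 to 96 for exit from D1, D4, D15 and D30, 16 to 29 and 9 to 14 for UV at D1 6 h and 24 h, 22 to 31 for UV at D4 0 h, 0 to 0 at D4 6 h and 24 h, 78 to 86 for exit by day and 4 to 11 for UV by hour.

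Named members gave 3415 alternative values for 252 results. Of these, 3130 kept their direction and side of the threshold, 254 (of 76 results) lost the threshold, 11 passed it and 20 turned sign, with 6 h against 0 h alone unless stated. nhr-49 from D1 to D4 was -0.0171 without replicate 1, in a range of -0.0171 to 0.241 over all libraries left out. From D1, nhr-246 was 0.0238, nhr-92 0.296, nhr-145 0.127, nhr-6 -0.0307, nhr-91 0.432, nhr-80 -0.142 and nhr-69 0.0683. From D15, nhr-99 was -1.11, nhr-237 0.0739, nhr-6 -0.516, nhr-23 -0.230, nhr-14 0.101 and nhr-69 0.0475. From D30, nhr-121 was -0.0905, nhr-22 -0.00892, nhr-23 -0.155, nhr-25 -0.135, nhr-114 -0.149 and nhr-86 -0.175. The fit at 6 h uses 6 of the 9 libraries and leaves out 24 h.

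Samples that share a replicate number did not deviate together (correlations from -0.205 to 0.126), so the numbers were not taken as pairs. With the replicate block, exit from D4 called 44, exit from D15 62 and exit from D30 81, and no count moved by over 1.5 times. Without a filter on low counts the median log2 of all genes moved to 0.15 for D1 against L3 and to -0.16 for UV at D4 0 h. The low depth of the UV libraries of D4 limits what can be called there.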

Other observations

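Neighbouring members were compared with neighbouring pairs of all protein-coding genes, over pairs with both genes called. They moved the same way in 15 of 16 member pairs from L3 to D1 (93.8%, against 58% of all pairs), 16 of 21 over the days of arrest (76.2%, against 64.9%), 13 of 19 from D1 to D4 (68.4%, against 63.1%), 14 of 17 from D4 to D15 (82.4%, against 59.5%) and 15 of 24 from D15 to D30 (62.5%, against 60.6%). On exit it was 30 of 31 from D1, 3 of 3 from D4, 11 of 16 from D15 (68.8%, against 60.2%) and 9 of 12 from D30. These shares are descriptions with no test, and where most called members moved 1 way, as on exit from D1, pairs that move together are frequent. Neighbours can share sequence, and the share of reads that such copies exchange was not tested.

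Values of some members that lie near each other are as follows. nhr-201 and nhr-202 overlap and together span V:462588-467509, and both were higher 24 h after exit than at 0 h on all 4 days. nhr-202 held 2.63, 3.48 and 4.10 CPM on D30 at 0 h and 11.8, 13.3 and 13.6 at 24 h, and nhr-201 held 19.9, 21.7 and 20.5 at 0 h and 37.1, 35.1 and 32.3 at 24 h. The neighbours nhr-73 and nhr-74 and the more distant nhr-245 on chromosome I had no count in any library of D30 at 0 h or 6 h. nhr-68 and nhr-101, in contrast, lie side by side, and over the days of arrest the first fell and the second rose.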
